A study of Equus caballus with 22 samples.

Results

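ABCC1 encodes an export pump of the plasma membrane, also called multidrug resistance-associated protein 1, and its RNA was followed here in the uterine lining (endometrium) of mares around days 8 and 12 of pregnancy. It was 1 of 675 genes that could be named on the array, and 2 of the 43603 non-control probes read it, chosen because their annotation names the horse RefSeq transcript of ABCC1. Each was a single spot. Both were among the 38461 probes that were tested, those that 5 or more of the 22 arrays measured well above background. The gene was picked for description because the brighter of its probes had risen with pregnancy at day 12 in these same arrays. Its day 12 change, and every comparison that contains it as one side, is given here as a description with no p-value. The change at day 8 did not enter that choice and was tested. The level of each mare averaged over her pregnant and control sample was also tested. At day 12 this average uses the arrays of that choice and contains part of their rise, so its test is not fully separate from the choice.

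ABC transporters use the energy of ATP to move molecules across membranes. The ABCC1 pump carries organic anions out of the cell, above all molecules that have been joined to glutathione, glucuronate or sulfate, and it exports leukotriene C4, a lipid mediator that is itself a glutathione conjugate. It is made in many tissues, often on the basolateral side of epithelia, and its known substrates include conjugated oestrogens as well as mediators of inflammation.

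Biopsies came from warmblood mares in 4 groups. The day 12 pregnant group held 6 samples taken after the embryo had been recovered at day 12, and the day 12 control group held 6 samples of the same mares at the matching stage without pregnancy. The day 8 pregnant and control groups held 5 samples each, again 1 of each kind per mare. Mares are numbered 1 to 6 at day 12 and 1, 2, 4, 5 and 6 at day 8, and whether equal numbers at both days mean the same animal is not given in the sources used here. Every pregnant sample had had its embryo flushed out before the biopsy. The biopsies were bulk tissue, so more ABCC1 RNA per cell and a larger share of cells that make ABCC1 cannot be told apart.

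All values are log2 processed spot signals relative to the 75th percentile of the same array, so 0 marks a spot as bright as that percentile, and 1 unit is a doubling. That percentile lay between 576.7 and 1863.4 signal units, and 74.2% to 92.9% of spots per array were well above background. The measured markers of endometrium (ESR1, and SCGB1A1, which encodes uteroglobin), epithelium (ESRP1) and stroma (DCN and LUM) were well above background on all 22 arrays. The day 12 arrays filled 4 slides and 3 scan days and the day 8 arrays another 3 slides and 2 scan days, so day and array batch cannot be told apart. Both samples of a mare always shared a slide. Day 8 mare 1 stood apart: her mean over both samples lay a median of 0.38 from the median of her day over 31038 probes, against 0.14 to 0.21 in the other 4 mares of day 8. Her arrays were the dimmest of day 8, with 75th percentiles of 632.5 (pregnant) and 576.7 (control) against 853.2 to 1461 in the others. Every level is relative to that percentile, and the part of array brightness in her levels was not tested. Results that rest on her are given with and without her.

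The brighter probe (A_69_P000541) read ABCC1 clearly on every array, with raw processed signals of 88.5 to 748.5 units, a scanner error of about 10.0% and a call well above background on 22 of 22 arrays. In pregnant endometrium at day 12 its levels were -1.32, -1.78, -1.65, -0.88, -1.16 and -1.46 in mares 1 to 6, a mean of -1.37 ± 0.33 (SD, n = 6). The control samples of the same mares read -2.07, -2.46, -2.04, -2.09, -1.41 and -2.27, a mean of -2.06 ± 0.35 (n = 6). The groups overlapped through mare 5, whose control sample was above the pregnant samples of mares 2, 3 and 6.

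At day 8 the pregnant samples of mares 1, 2, 4, 5 and 6 read -1.62, -3.44, -3.13, -3.06 and -3.56, a mean of -2.96 ± 0.78 (n = 5). Their control samples read -1.84, -3.24, -2.93, -3.03 and -3.17, a mean of -2.84 ± 0.57 (n = 5). Pregnant and control samples overlapped throughout. Mare 1 lay within the range of the day 12 samples in both of hers, and the other 4 mares lay below every day 12 sample. Before scaling, her signals were 205.6 (pregnant) and 161.1 units (control), against 88.5 to 188.6 in the other 4 mares. Unscaled signals also follow the brightness of the array.

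The dimmer probe (A_69_P006156) gave signals near background, of 3.95 to 38.0 units, with a scanner error of 11.1% to 39.7%. At day 12 it cleared background on all 6 pregnant arrays and on 5 of the 6 controls, and at day 8 on 2 of the 5 pregnant arrays and 3 of the 5 controls. Its day 12 pregnant levels in mares 1 to 6 were -5.62, -5.39, -5.90, -6.40, -5.52 and -6.57 (mean -5.90 ± 0.49), and its day 12 control levels -6.39, -6.35, -6.38, -6.74, -5.60 and -6.50 (mean -6.33 ± 0.38). In mares 1, 2 and 3 the pregnant sample was clearly the higher one, whereas in mares 5 and 6 the samples differed by 0.08 and -0.07. At day 8 the pregnant samples of mares 1, 2, 4, 5 and 6 read -5.39, -8.22, -8.09, -7.20 and -8.05 (mean -7.39 ± 1.19) and the control samples -5.60, -7.52, -7.48, -7.14 and -7.48 (mean -7.04 ± 0.82). Mare 1 was again the exception at day 8, above every day 12 control sample or level with the highest of them. Before scaling, her signals were 15.1 (pregnant) and 11.9 units (control), against 3.95 to 9.06 in the other mares of day 8.

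**Figure D1:**
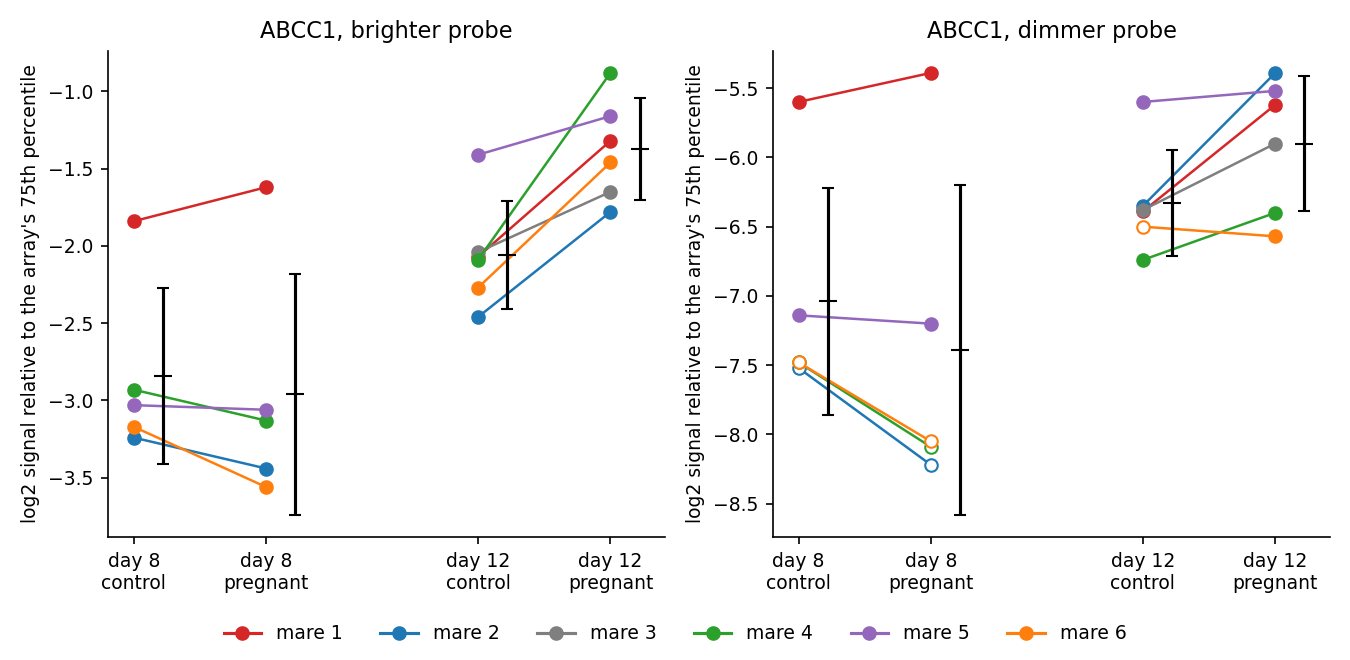
ABCC1 level of each sample on the log2 scale relative to the array's 75th percentile, for the brighter probe (left) and the dimmer probe (right), by day and pregnancy. Lines join the 2 samples of a mare, open circles are arrays on which the spot was not well above background, and black bars show each group's mean ± SD (n = 5 at day 8, n = 6 at day 12); every brighter-probe line rises at day 12, and day 8 mare 1 sits far above the other mares of her day.

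Ordered by mean level, the brighter probe ran from day 12 pregnant (-1.37) over day 12 control (-2.06) and day 8 control (-2.84) to day 8 pregnant (-2.96). The dimmer probe gave the same order, at -5.90, -6.33, -7.04 and -7.39. Each neighbouring pair of groups in this order overlapped in both probes, the controls of the 2 days only through day 8 mare 1. Levels were not compared between the probes, since their spots differ in how strongly they bind.

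ABCC1 RNA was higher in the pregnant than in the control sample of all 6 mares at day 12 by the brighter probe. The within-mare changes were 0.76, 0.67, 0.40, 1.21, 0.25 and 0.81 in mares 1 to 6. They were smallest in mare 5, whose control sample was the highest, and largest in mare 4. The mean change was 0.68 ± 0.12 (SE from limma, n = 6 mares, 95% interval 0.42 to 0.95), or 1.61-fold, and it is the value the gene was picked on. For scale, 0.265% of the 38461 probes passed in either direction and 0.211% as higher at this day (limma, adjusted p under 0.05), 2.25% of probes were higher in all 6 mares, and 2.16% had a larger mean change. Nothing is read from these shares, because the choice of ABCC1 used this contrast.

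The dimmer probe moved the same way at day 12 in 5 of 6 mares. Its changes were 0.77, 0.96, 0.47, 0.34, 0.08 and -0.07 in mares 1 to 6, a mean of 0.43 ± 0.15 (SE, 95% interval 0.09 to 0.76), or 1.35-fold. Leaving mares out one at a time moved the day 12 change between 0.58 and 0.77 for the brighter probe and between 0.32 and 0.53 for the dimmer one.

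At day 8 neither probe passed the test for a change with pregnancy. The brighter probe changed by 0.22, -0.20, -0.20, -0.03 and -0.39 in mares 1, 2, 4, 5 and 6, a mean of -0.12 ± 0.13 (SE, n = 5 mares; limma adjusted p = 0.936; exact sign-flip permutation p = 0.312, two-sided). Its 95% interval ran from -0.41 to 0.17. The dimmer probe changed by 0.21, -0.70, -0.61, -0.06 and -0.57, a mean of -0.35 ± 0.17 (95% interval -0.72 to 0.02; limma adjusted p = 0.833; exact permutation p = 0.188). With 5 mares the exact test cannot go below 0.0625. In both probes mare 1 was the only mare whose pregnant sample was higher. Without her the brighter probe averaged -0.20 ± 0.15 (SD) and the dimmer -0.49 ± 0.29, and neither passed the limma test (adjusted p = 0.821 and 0.624). Both were lower in 4 of 4 mares, which follows from leaving out the only mare that rose. In the authors' value table the dimmer probe's changes in mares 2, 4, 5 and 6 were mixed in sign, at -0.10, 0.05, -0.08 and 0.06. Across the array, 0% of 38457 probes passed at day 8 by limma, the smallest adjusted p was 0.315, and 5.83% had an unadjusted p under 0.05.

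**Figure D2:**
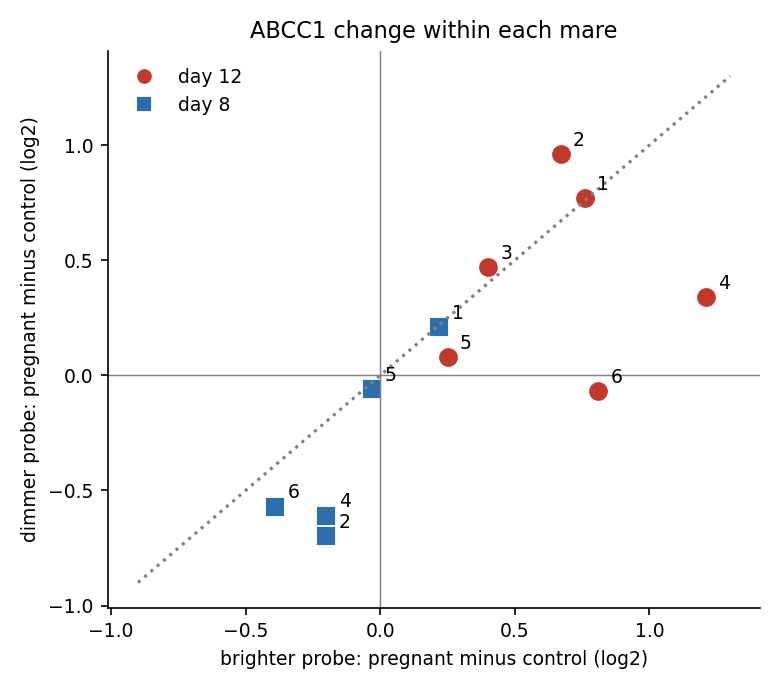
Pregnant minus control level of ABCC1 in each mare (log2), brighter probe on the horizontal axis and dimmer probe on the vertical axis, with mare numbers beside the points and the dotted line marking equal changes. The day 12 mares (red circles) all lie right of 0, and 4 of the 5 day 8 mares (blue squares) lie below and left of 0.

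The change at day 12 exceeded the change at day 8 by 0.80 ± 0.18 (SE) for the brighter probe and by 0.77 ± 0.23 for the dimmer one. This difference contains the chosen contrast, so no test of it is given for ABCC1. Across the array 0.0104% of probes passed as different between the days.

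By mare means ABCC1 also read higher at day 12 than at day 8, though day and array batch cannot be told apart. Averaged over both samples of a mare, the brighter probe lay between -2.12 and -1.28 in the 6 mares of day 12 and between -3.37 and -1.73 in the 5 mares of day 8. Only day 8 mare 1, at -1.73, overlapped the day 12 range, and the other 4 were at or below -3.03. The difference was 1.19 ± 0.28 (SE, n = 6 and 5 mares, 95% interval 0.57 to 1.80), or 2.27-fold, and it passed the test (limma adjusted p = 0.0150; exact permutation p = 0.0108, two-sided). The day 12 means hold part of the rise that ABCC1 was picked on, so this pass is not fully separate from that choice. Such a difference was common: 9.39% of 38457 probes passed as higher at day 12 and 11.5% as lower, and 1.96% had a larger rise. With scan day as a random block the value was 1.15 and no longer passed (limma adjusted p = 0.146), nor did it in the authors' value table (1.15, adjusted p = 0.137) or with mare number as a block across days (1.21, adjusted p = 0.051). Column medians of the authors' table ran from 7.47 to 8.83, so arrays were not levelled to a common median there. A comparison between mares in that table is thus not like for like with the main one.

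The dimmer probe differed by 1.1 ± 0.40 (SE, 95% interval 0.23 to 1.97) and did not pass over all probes (limma adjusted p = 0.0695; exact permutation p = 0.0411 for this probe alone). The size of this difference hung on the processing: it was 0.40 after normexp background correction and 0.21 in the authors' value table (limma adjusted p = 0.613 and 0.967). Its mare means ran from -6.57 to -5.56 at day 12 and from -7.87 to -5.49 at day 8, where mare 1 was above all 6 mares of day 12. Without day 8 mare 1 the brighter probe's difference was 1.48 ± 0.17 (limma adjusted p = 0.00089). The dimmer probe's was then 1.53 ± 0.22 (limma adjusted p = 0.0023), but only 3 of the 8 remaining day 8 arrays read it well above background, so its size is uncertain. Day 8 mare 1 was the only mare of her day not below day 12, so smaller p-values follow from leaving her out. In that fit 4780 of 38449 probes passed as higher at day 12. With other mares left out 1 at a time, the limma adjusted p reached 0.0437 (brighter) and 0.157 (dimmer). The mean of a mare includes any change with pregnancy, at day 12 the rise that ABCC1 was picked on. In control samples alone, day 12 lay above day 8 by 0.78 ± 0.27 (brighter) and 0.71 ± 0.35 (dimmer), and in pregnant samples alone by 1.59 ± 0.32 and 1.49 ± 0.47. Without day 8 mare 1 these were 1.03 and 1.08 in controls and 1.92 and 1.99 in pregnant samples. The dimmer probe's values were -0.03 (controls) and 0.82 (pregnant) after normexp and 0.11 and 0.30 in the authors' table. All are given as descriptions.

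Day 8 mare 1 differed from her day in many other transcripts, only partly in the direction of day 12. Over 31038 probes her median distance was 0.38 from the median of day 8 and 0.43 from that of day 12. The other 4 mares of day 8 all lay below the 6 mares of day 12 in 3798 of 38103 probes (9.97%), and in 1891 of these (49.8%), both ABCC1 probes included, mare 1 lay at or above the lowest day 12 mare. Among the cell type markers, 13 of 18 were higher in her than in the other 4 mares of day 8 and 1 was lower. The lower one was ESRP1 of epithelium (2.54 against 2.95 to 3.09), and ESR1 lay within the range of the others. The share of all probes in which she lay above the other 4 is not given here, so nothing about the markers is read from these counts. Of these 13, 7 lay above every day 12 mare as well, among them SCGB1A1 (8.17 against at most 7.84 in the other mares of day 8 and 6.76 at day 12) and LUM (1.95 against at most 1.75 and 1.03). TAGLN, a smooth muscle gene, read -1.03 in her against -2.26 to -1.97 in the others, and TPSB2, a mast cell tryptase, 0.47 against -2.48 to 0.18. The part of these cell types in her ABCC1 level was not tested.

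The 2 probes followed each other more across days than within day 12. Over the 22 arrays their levels correlated with Pearson's r = 0.87 (Spearman's rho = 0.81), but much of this is the gap between the days and day 8 mare 1. Centred on group means they gave r = 0.79, against 0.25 over the 20 arrays without that mare. Within-mare changes correlated with r = 0.74 over 11 pairs and 0.75 without that mare, while over the 6 day 12 pairs r was 0.07. The points share arrays and their scaling, so these values are descriptions. Among 242 named genes with at least 2 tested probes, the median correlation of changes was 0.92 (quartiles 0.71 and 0.97), and 174 genes had closer probes than ABCC1.

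The widest gaps between the probes at day 12 were those of mares 4 and 6. There the brighter probe rose by 1.21 and 0.81 and the dimmer by 0.34 and -0.07. These mares shared a slide that was dimmer than the rest of day 12, with a 75th percentile of 636.3 to 744.1 units against 1127.9 to 1863.4, and the dimmer probe gave 6.63 to 7.84 units there against 13.5 to 38.0 elsewhere. In the other 4 mares of day 12 the probes averaged 0.52 and 0.57. By slide, the brighter probe's mean day 12 change was 0.58, 0.67, 1.01 and 0.25, higher with pregnancy on each slide. The dimmer probe gave 0.62, 0.96, 0.14 and 0.08 on the same slides. The part of the low signal in this gap was not tested.

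**Figure D3:**
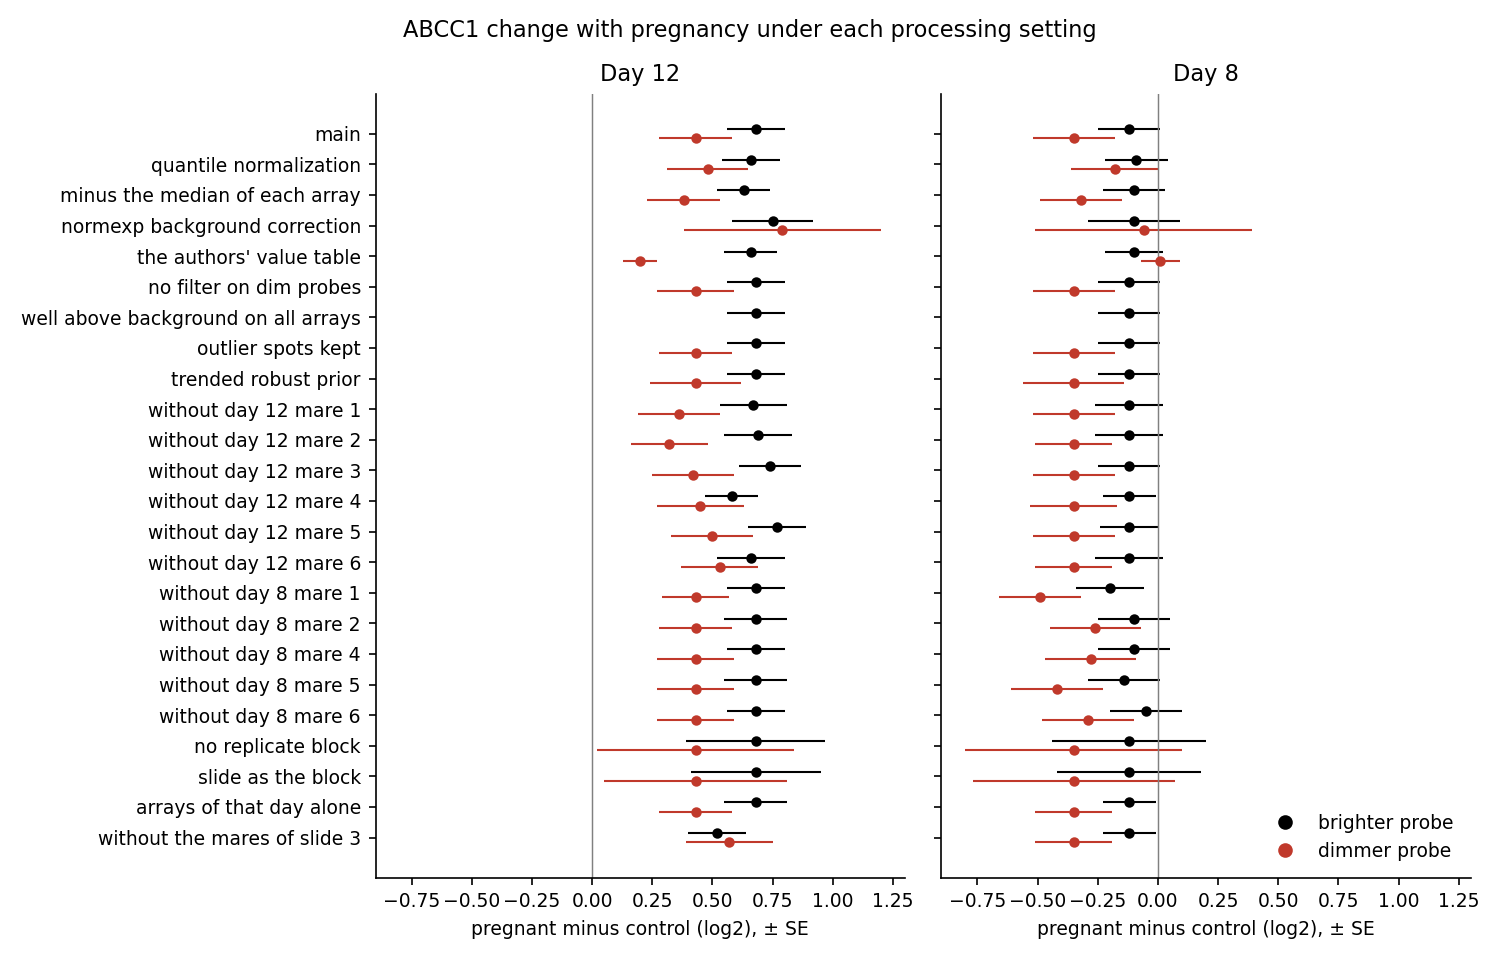
Mean pregnant minus control change of ABCC1 (log2, ± SE from limma) at day 12 (left) and day 8 (right) under each processing setting, black for the brighter and red for the dimmer probe; the dimmer probe has no value where probes had to be above background on all arrays. All day 12 values lie above 0, from 0.52 to 0.77 for the brighter probe and from 0.20 to 0.79 for the dimmer probe.

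Few genes of the pathways around ABCC1 could be named on this array. Of 11 members listed for the ABCC family, the only one with a named probe was CFTR, a chloride channel of secretory epithelia rather than an exporter of conjugates. CFTR changed by -0.33 ± 0.27 (SE) at day 12 and 0.06 ± 0.30 at day 8, and neither passed. By mare mean it was lower at day 12 than at day 8 by a difference of -1.11 ± 0.26 (limma adjusted p = 0.0135), opposite to ABCC1. In the gene order of the horse TB-T2T assembly ABCC1 lies between ABCC6 and CEP20, and neither had a named probe here. ABCE1, an ABC protein of ribosome recycling that carries nothing across membranes, was the only one of 36 other ABC genes measured and changed by 0.01 ± 0.11 at day 12 and -0.12 ± 0.12 at day 8.

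Synthesis and conjugation of ABCC1 substrates, with glutathione metabolism, were represented by 3 genes, and none passed for pregnancy at either day. PLA2G4A, the phospholipase that frees arachidonic acid for leukotriene and prostaglandin synthesis and the only one of 17 leukotriene genes measured, was higher in 5 of 6 mares at day 12 (0.39 ± 0.21) and in 2 of 5 at day 8 (-0.23 ± 0.23). SULT1E1, which sulfates oestrogens, changed by -0.14 ± 0.21 at day 12 and by -0.45 ± 0.23 at day 8, where it was lower in the pregnant sample of all 5 mares, as were 4.25% of all probes. It was 1 of 19 listed genes of conjugation. GPX3, a secreted glutathione peroxidase and the only one of 40 glutathione genes measured, changed by -0.13 ± 0.14 and 0.11 ± 0.15.

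Of 22 listed target genes of NRF2, the transcription factor of the oxidative stress response that is known to regulate ABCC1 in other cells, 4 were measured. At day 12 the thioredoxin genes TXN (-0.11 ± 0.09) and TXNRD1 (-0.05 ± 0.15) had values below 0, and FTL, the ferritin light chain (0.20 ± 0.09), and AKR1C1 (0.04 ± 0.22), a reductase of steroids, had values above 0. None passed at either day, and their median was -0.01 against -0.02 over all probes tested. SLCO2B1, an uptake carrier of conjugated steroids and 1 of 19 listed carriers, was higher in all 6 mares at day 12 (0.31 ± 0.14) without passing, as were 2.25% of all probes. The 12 listed genes of sphingosine-1-phosphate, another lipid exported by ABCC1, had no named probe.

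**Figure D4:**
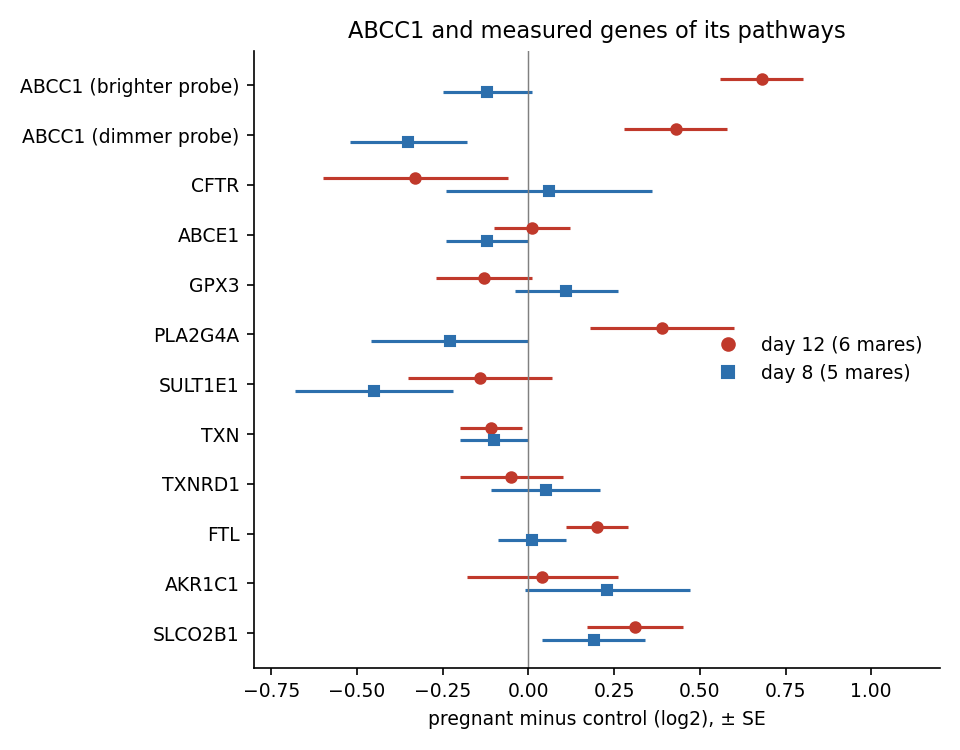
Pregnant minus control change (log2, ± SE from limma) at day 12 (red circles, 6 mares) and day 8 (blue squares, 5 mares) for both ABCC1 probes and the 10 measured genes of the pathway lists shown here. The ABCC1 probes lie at 0.68 and 0.43 at day 12, and the highest of the other genes, PLA2G4A, at 0.39.

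For pregnancy, 0.265% of all probes tested passed at day 12 and 0% at day 8 in the limma fit. None of the 18 measured cell type markers passed at either day. The largest day 12 values were those of TAGLN of smooth muscle (0.90 ± 0.23, higher in 6 of 6 mares), the monocyte receptor CD14 (0.51 ± 0.16) and PECAM1 of endothelium (0.44 ± 0.16). On a linear scale, relative to the array's 75th percentile, TAGLN, the only one of 5 smooth muscle markers measured, lay at 0.371 to 0.787 in day 12 pregnant and 0.139 to 0.473 in day 12 control samples. The 4 of 7 markers measured for macrophages and dendritic cells summed to 9.42 to 12.3 and 6.94 to 12.0, and the 1 of 7 endothelial markers to 1.42 to 2.85 and 0.914 to 2.10. Their part in the ABCC1 values was not tested. Between days, 2 of the 18 passed as higher at day 12, PECAM1 and CD14 (0.76 and 0.74, limma adjusted p = 0.00895 and 0.0159). Another 5 passed as lower: ESR1, the oestrogen receptor (-0.81), SCGB1A1 (-1.40), LUM (-0.65), ITGAX (-0.72) and ITGA2B (-0.73), with limma adjusted p of 0.0118, 0.00309, 0.0163, 0.045 and 0.008. Of the 4 markers of macrophages and dendritic cells, CD14 was thus higher and ITGAX lower. Over all probes tested, 9.39% passed as higher at day 12 and 11.5% as lower, and nothing about the markers is read from these counts.

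Among 503 named genes well above background on all arrays, EIF2AK2 had within-mare changes most like those of ABCC1, here the mean of its probes (r = 0.93 over 11 pairs; median of all candidates -0.02). EIF2AK2, a kinase activated by double-stranded RNA, changed by 0.70, 0.84, 0.07, 1.11, 0.06 and -0.09 in the day 12 mares 1 to 6, and by 0.19, -0.29, -0.67, -0.24 and -0.74 in day 8 mares 1, 2, 4, 5 and 6. It was high in day 12 mares 1, 2 and 4 and lowest in day 8 mare 6, as ABCC1 was. Its means were 0.45 ± 0.17 (SE) at day 12 and -0.35 ± 0.19 at day 8. The next were CCNT1 (r = 0.86), PTGS2 (0.85), ARNTL (0.83) and DPRX (0.82). The order of these 5 genes depended on the probe. With the brighter probe alone r was 0.88 for EIF2AK2, 0.68 for CCNT1, 0.76 for PTGS2, 0.90 for ARNTL and 0.83 for DPRX. With the dimmer probe alone the values were 0.85, 0.92, 0.82, 0.65 and 0.71. None of the 5 passed for pregnancy at either day. PTGS2, the inducible cyclooxygenase of prostaglandin synthesis, was higher in all 6 day 12 mares (0.27 ± 0.11) and lower in all 5 day 8 mares (-0.37 ± 0.12). Of all probes, 2.25% were higher in all 6 mares at day 12 and 4.25% lower in all 5 at day 8. The gene was picked for changes like those of ABCC1 over both days, so its pattern follows in part from that choice. These correlations join the gap between the days with spread among mares, and within the 6 pairs of day 12 they were 0.89 for EIF2AK2, 0.78 for CCNT1, 0.33 for PTGS2, 0.51 for ARNTL and 0.72 for DPRX. Without day 8 mare 1 they stayed between 0.82 and 0.93 over the remaining 10 pairs.

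**Figure D5:**
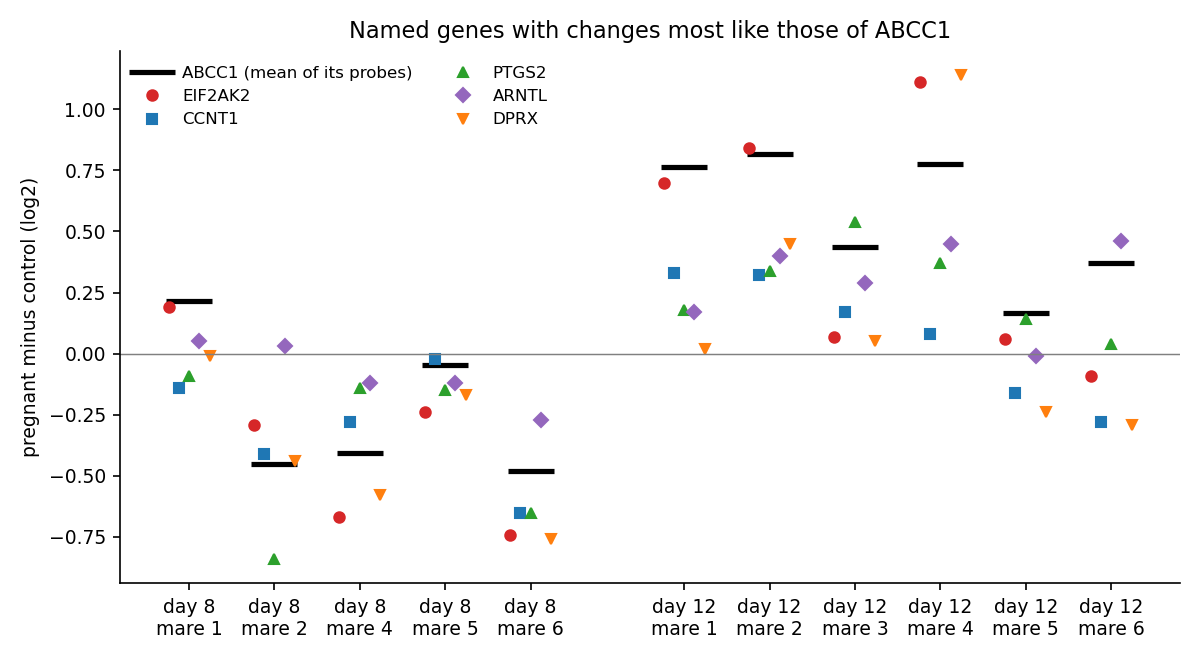
Pregnant minus control change (log2) in each mare for ABCC1 (black bars, mean of its probes) and the 5 named genes with the highest correlation to it over the 11 pairs. EIF2AK2 reaches 1.11 in day 12 mare 4 and -0.74 in day 8 mare 6, and all 6 genes read below 0 in day 8 mares 4, 5 and 6.

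By level rather than change, centred on group means over the 22 arrays, TNF (r = 0.89), PRKAB2 (0.86), TLX3 (0.85), BTBD7 (0.84) and DENND1C (0.83) were most like ABCC1. This likeness came largely from the arrays of day 8 mare 1. Without day 8 mare 1 the values over 20 arrays were 0.26 for TNF, 0.67 for PRKAB2, 0.39 for TLX3, 0.38 for BTBD7 and 0.44 for DENND1C.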

How the data were processed

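Total RNA of endometrial biopsies was labelled with Cy3 and hybridised, 1 colour per array, per the labels' protocols. The arrays were Agilent horse arrays. The authors deposited scanner intensity values made with Agilent's Feature Extraction software. The submitters' processing notes give its version as 10.5.1.1. The day 8 arrays carry version 10.7.3.1, per the file headers. The processed intensity is background-subtracted with no scaling from array to array. A value table deposited by the authors was read as log2, from its slope of 0.811 to 0.908 and correlation of 0.986 to 0.997 with the log2 scanner intensity; its column medians were 7.47 to 8.83, the sources used here give neither its normalisation nor its centring, and it was an alternative only.

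Here, the log2 processed intensity minus the array's 75th percentile was used. Spots flagged as non-uniform (3 to 152 per array, none of ABCC1) were left out, and spots of a probe were averaged. No spot was saturated. Symbols came from the RefSeq gene table of the TB-T2T assembly, which named 1394 probes (675 genes), gave several symbols to 1 probe and none to 42208. A gene other than ABCC1 stands by its brightest probe. Probe, promoter and protein sequences and coordinates were not used here.

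limma 3.58.1 in R 4.3.3 fitted all 22 arrays together, with a fixed block for every mare and day and 1 pregnancy effect for each day; days were compared on 11 mare means. Benjamini-Hochberg adjustment ran over all probes tested, with a threshold of 0.05. Samples of a mare are paired by the labels. As a check, their deviations from group means correlated at 0.289 to 0.725 (day 12) and 0.321 to 0.817 (day 8). The number of arrays limits the precision. Alternatives covered the scaling, background, filters, blocks, the prior variance, the authors' table and leaving out each mare; normexp used median spot signals. The named genes were ABCC1, the measured members of the pathway lists and the 5 genes most correlated with ABCC1 by change and by level. The members and lists were chosen with earlier results of these data known. Of the lists, 1 gene is not reported here.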

Additional observations from a re-analysis of the deposited data

Results flagged for a closer look

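In 12 sets of 5 or 6 ABCC1 values, made of both probes' levels in each group and their changes at each day, 4 held a sample far from the others of its set by Dixon's test, which chance gives in about 1 set in 20. In 3 of them the sample came from day 8 mare 1: her pregnant sample at -1.62 and her control sample at -1.84 in the brighter probe, and her control sample at -5.60 in the dimmer one, each the highest of its group. In the fourth, the day 12 control sample of mare 5 read -5.60 in the dimmer probe, the highest of the 6 day 12 controls. The same sample was also the highest day 12 control in the brighter probe, at -1.41.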

How the results depend on the processing

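The day 12 change of ABCC1 kept its direction in the alternatives run, at 0.52 to 0.75 for the brighter probe over 12 alternatives and 0.20 to 0.79 for the dimmer over 11. As a description, the brighter probe passed the threshold in the main fit but not in all alternatives. It did not pass with median scaling, normexp, no filter, no block, slide as the block, day 12 arrays alone or without the slide 3 mares. It also did not pass with most single mares left out, and the dimmer probe passed in none of these fits. With no replicate block, ignoring the pairing of a mare's samples, the changes were the same and the errors grew to 0.29 and 0.41 (SE) at day 12, and 41 probes passed in place of 102. The dimmer probe's day 8 change reversed to 0.01 in the authors' table, its control difference between days to -0.03 after normexp correction, and its difference between the days' changes shrank to 0.19 in the authors' table; its mare mean difference (1.1, adjusted p = 0.0695) was 0.40 after normexp (0.613) and 0.21 in the authors' table (0.967), and after quantile normalisation, at 1.19, it passed (adjusted p = 0.0294). The brighter probe's mare mean difference did not pass in the authors' table (1.15), with mare number as a replicate block across days (1.21) or with scan day as a random block (1.15), the last chosen after seeing the data, as was leaving out the slide 3 mares. Probes passing at day 12 (102) numbered 13 with normexp, 303 in the authors' table, 218 with the filter on all arrays, 287 with a trended robust prior, 9 with the day 12 arrays alone and 10 without the mares of slide 3. Probes passing between days (8029) numbered 1444, 485, 2257, 4447 and 1136 with normexp, the authors' table, mare number, slide and scan day as blocks. Arrays in the authors' table were not levelled to a common median, so its count between days is not like for like with the main one. The cause of these shifts was not tested. The median change of all probes at day 12 went from -0.02 to 0.33 under normexp, and relative to it the brighter probe stood at 0.41 and the dimmer at 0.45. With mares left out one at a time, the values ran from 0.58 to 0.77 and 0.32 to 0.53 (day 12, brighter then dimmer), -0.20 to -0.05 and -0.49 to -0.26 (day 8), 0.70 to 0.89 and 0.67 to 0.91 (difference of changes), 1.07 to 1.48 and 0.94 to 1.53 (mare means), 0.65 to 1.03 and 0.57 to 1.08 (controls), and 1.44 to 1.92 and 1.28 to 1.99 (pregnant). Counts ran from 31 to 977 at day 12 (31, 33, 977, 64, 302 and 35 without day 12 mares 1 to 6), stayed at 0 at day 8 and ran from 4535 to 9463 between days (4535, 4755 and 4987 without day 8 mares 6, 5 and 4). The dimmer probe is limited by its low signal over background.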
